A study of Homo sapiens with 4 samples.

Results

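Transcripts of the urokinase receptor and of the plasminogen activation system were examined in HGC-27 cells, an established gastric carcinoma cell line, after knockdown of the deubiquitinase USP47. The set held 7 genes of the 63568 gene identifiers measured, taken by symbol: PLAUR, PLAU, PLAT, SERPINE2, SERPINB2, SERPINF2 and PLGRKT. All 4 RNA-Seq libraries came from HGC-27 cells infected with lentivirus, and there were 2 libraries with Control shRNA (a scrambled sequence) and 2 with USP47 shRNA. The comparison asked how loss of USP47 altered the transcriptome. The series describes the libraries of a condition as biological duplicates, and whether both knockdown libraries carried the same shRNA is not given in the sources used here. The p-values therefore measure the spread between these libraries only.

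Plasminogen circulates as an inactive precursor and is cut to plasmin, a broad protease that dissolves fibrin and degrades pericellular matrix, by urokinase (uPA, from PLAU) or tissue-type activator (tPA, from PLAT). The urokinase receptor (uPAR, from PLAUR) holds urokinase at the cell surface through a lipid anchor, next to plasminogen bound by surface receptors such as PLGRKT. Serpins limit the cascade at the activators (SERPINE2, SERPINB2) or at plasmin itself (SERPINF2), and in carcinomas the system is known for its part in invasion.

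Total counts per library were between 15649899 and 20140273. USP47 itself was measured at 80.0 and 66.1 CPM (counts relative to library size, scaled by the trimmed mean of M-values, TMM) in the control libraries and at 36.0 and 21.5 CPM in the knockdown libraries, which is 49.3% and 29.5% of the control mean (log2 fold change -1.33, SE 0.21, edgeR quasi-likelihood adjusted p = 0.0036). The epithelial keratins KRT18 and KRT19 had 0 or 1 count in every library, and EPCAM had 12 and 11 counts with control shRNA and 3 in each knockdown library. Other epithelial genes were detected, with MUC1 at 244 to 470 counts, CLDN4 at 41 to 77 and CDH1 at 8 to 28. The fibroblast gene COL3A1 had between 28733 and 37030 counts. Of 16 epithelial and gastric genes, 6 had at least 10 counts in every library, against 8 of 8 fibroblast genes and 2 of 8 immune genes.

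PLAUR (ENSG00000011422.7), the receptor, lies on the minus strand of chromosome 19 (hg19, chr19:44150247-44174699). Reads assigned to it numbered 79 and 112 with control shRNA and 67 and 37 with USP47 shRNA. Scaled by TMM, the control libraries stood at 4.66 and 5.71 CPM and the knockdown libraries at 3.22 and 2.58 CPM. The groups did not overlap. Of the knockdown libraries, the one with less PLAUR also had less USP47. The control pair went the other way, with USP47 at 80.0 and 66.1 CPM. Group means were 5.18 ± 0.743 CPM and 2.90 ± 0.455 CPM (SD, n = 2 each), the knockdown mean being 55.9% of the control mean. PLAUR fell with USP47 shRNA (log2 fold change -0.82, SE 0.22, 95% interval -1.31 to -0.34, edgeR quasi-likelihood adjusted p = 0.0299). The call did not hold with DESeq2's Wald test (-0.81, adjusted p = 0.132), where 6.75% of genes with an adjusted p were called lower, nor in edgeR scaled by library size without TMM (adjusted p = 0.0528), without control replicate 1 (-0.96, adjusted p = 0.0563) or without control replicate 2 (-0.67, adjusted p = 0.266). DESeq2, in version 1.26.0, is the tool that the study's methods name for differential expression. Of the genes inside the span of PLAUR, RN7SL368P had at most 5 counts and AC006953.1 at most 1, with 0 exon bases shared. PLAUR was among the genes the study picked after its RNA-Seq for follow-up, so its direction here is no independent evidence. The study reports that RT-qPCR after USP47 knockdown also gave lower PLAUR, a measurement not examined here. It also reports that SNAI1 overexpression restored the picked genes. In a bulk library, fewer cells that express a gene and less of its RNA per cell cannot be told apart.

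**Figure D1:**
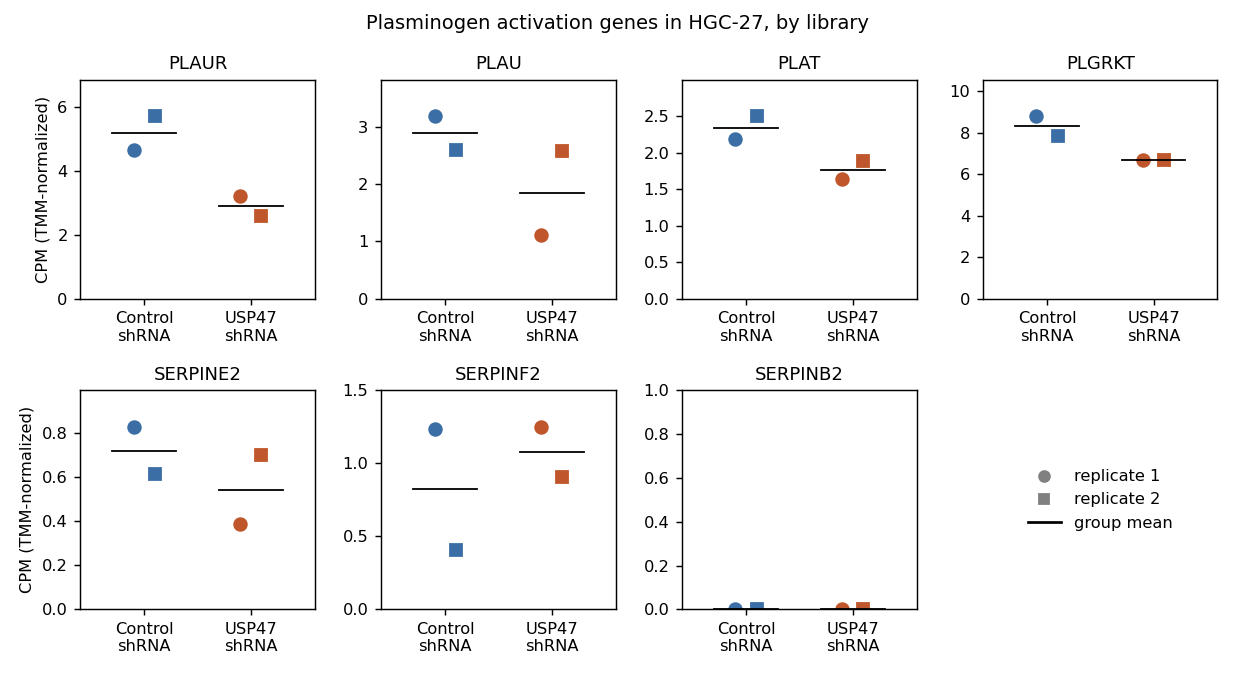
TMM-normalized CPM (vertical axes, each starting at 0) of the 7 genes in the 2 control and the 2 USP47 shRNA libraries, with each point a library and the bar the group mean. PLAUR was at 4.66 and 5.71 CPM in the control libraries and 3.22 and 2.58 CPM in the knockdown libraries, PLGRKT was the highest in CPM in every library, and SERPINB2 was at 0 throughout.

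In the RefSeq annotation of GRCh38.p14, 5 of the 7 genes matched a start site (7 windows in all), and PLAT and SERPINF2 did not match. Windows of the 250 bases before the start were searched on both strands for the AP-1 motif TGANTCA, the GC box GGGCGG, the Snail E-box CAGGTG and an NF-kB motif, whose matches can overlap each other and the GC box. Coordinates of these windows are those of GRCh38.p14 and do not compare with the hg19 positions of the genes. Snail, from SNAI1, is a repressor that binds E-boxes and was examined together with USP47 in the study. 3 windows are shown, those with an AP-1 or Snail E-box match, and the capitals mark that match.
PLAUR (chr19:43670170-43670419, minus strand, AP-1): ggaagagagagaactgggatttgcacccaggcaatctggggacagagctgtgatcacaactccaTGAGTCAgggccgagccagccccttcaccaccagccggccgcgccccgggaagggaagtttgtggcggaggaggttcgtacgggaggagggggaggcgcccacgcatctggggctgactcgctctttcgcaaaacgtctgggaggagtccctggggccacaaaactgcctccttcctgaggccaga
PLAU (chr10:73910882-73911131, plus strand, Snail E-box): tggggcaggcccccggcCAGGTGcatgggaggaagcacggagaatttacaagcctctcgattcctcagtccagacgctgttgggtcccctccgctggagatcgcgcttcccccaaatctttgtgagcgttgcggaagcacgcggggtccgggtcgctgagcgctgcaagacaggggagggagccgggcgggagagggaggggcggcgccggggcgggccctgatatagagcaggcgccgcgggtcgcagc
SERPINB2 (chr18:63887455-63887704, plus strand, AP-1): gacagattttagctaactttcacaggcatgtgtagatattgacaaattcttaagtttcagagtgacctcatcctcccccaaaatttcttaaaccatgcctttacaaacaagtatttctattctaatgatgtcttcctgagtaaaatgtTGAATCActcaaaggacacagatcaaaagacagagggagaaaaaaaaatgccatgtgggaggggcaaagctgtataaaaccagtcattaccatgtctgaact
The AP-1 match began 186 bases before the start in PLAUR and 102 bases before it in SERPINB2, and 6.57% of all 35116 windows of the same length held one. The Snail E-box of PLAU began 233 bases before the start, and 17.5% of all windows held one. PLAU also had 3 GC boxes, a motif that 42.6% of windows held. SERPINE2 had 1 GC box in one window and 2 in the other, and the window of PLGRKT held no AP-1, GC box or Snail E-box match. NF-kB matches, present in 54.4% of windows, numbered 4 in PLAUR, 1 and 8 in the windows of PLAU, 0 and 5 in those of SERPINE2, 1 in PLGRKT and 0 in SERPINB2. A match describes letters in the window and not a bound site.

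Both plasminogen activators had lower values with USP47 shRNA, and neither passed the test. PLAU (ENSG00000122861.11) encodes urokinase, the ligand of the receptor, and lies on the plus strand of chromosome 10 (hg19, chr10:75668935-75677254). It was at 3.18 and 2.60 CPM in the control libraries (54 and 51 counts) and at 1.11 and 2.58 CPM in the knockdown libraries (23 and 37 counts). The groups did not overlap, but the second knockdown library sat at 89.2% of the control mean and the first at 38.2%, so the fall was carried by the first, the reverse of the order for PLAUR. Means were 2.89 ± 0.413 CPM and 1.84 ± 1.04 CPM (SD, n = 2 per group), and the log2 fold change was -0.72 (SE 0.35, 95% interval -1.49 to 0.057, edgeR adjusted p = 0.186). It was -1.37 without knockdown replicate 2 and -0.16 without knockdown replicate 1. Each of these fits had 1 knockdown library and so held no spread between knockdown libraries. C10orf55, an RNA on the opposite strand of PLAU, shares 915 exon bases with it, and had at most 4 counts in any library. Whether the counting used strand is not given in the sources used here.

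PLAT, which encodes the activator tPA, the clot-dissolving protease of blood, lies on the minus strand of chromosome 8 (ENSG00000104368.13, hg19, chr8:42032236-42065227). It was at 2.18 and 2.50 CPM in the control libraries and at 1.63 and 1.88 CPM in the knockdown libraries. Both knockdown libraries were below both control libraries, at 75.1% of the control mean. The log2 fold change was -0.43 (SE 0.26, 95% interval -0.99 to 0.14, edgeR adjusted p = 0.276).

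The serpins were at or near the limit of these libraries, where 3 counts correspond to between 0.144 and 0.209 CPM. SERPINE2 (protease nexin-1, an inhibitor of urokinase and thrombin; ENSG00000135919.8, minus strand, hg19 chr2:224839762-224904035) had 14 and 12 counts with control shRNA and 8 and 10 counts with USP47 shRNA. In CPM the groups overlapped, at 0.825 and 0.612 against 0.385 and 0.697, and the log2 fold change was -0.46 (SE 0.45, 95% interval -1.45 to 0.53, edgeR adjusted p = 0.512). SERPINF2 (alpha-2-antiplasmin, the main inhibitor of plasmin; ENSG00000167711.9, plus strand, hg19 chr17:1646130-1658559) had 21 and 8 counts against 26 and 13 counts. Its control libraries spanned 0.408 to 1.24 CPM and held the lower knockdown value of 0.906 CPM between them, with a log2 fold change of 0.46 (SE 0.47, 95% interval -0.58 to 1.5, edgeR adjusted p = 0.533). Without control replicate 2, its log2 fold change turned to -0.17 (adjusted p = 0.899). SERPINB2 (PAI-2, a urokinase inhibitor; ENSG00000197632.4, plus strand, hg19 chr18:61538926-61571122) had 0 counts in all 4 libraries and was not tested. It shares 547 exon bases with ENSG00000289724 on the same strand, a gene not analysed here.

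PLGRKT, a membrane receptor for plasminogen (ENSG00000107020.5, minus strand, hg19 chr9:5357971-5437925), had 149 and 154 counts with control shRNA and 139 and 96 counts with USP47 shRNA. Its control libraries were at 8.78 and 7.85 CPM and its knockdown libraries at 6.68 and 6.69 CPM, so the groups did not overlap and the mean was 80.4% of the control mean. The test gave a log2 fold change of -0.31 (SE 0.17, 95% interval -0.69 to 0.062, edgeR adjusted p = 0.231). The pseudogene RNF152P1 overlaps its span without sharing exon bases and had 6 to 14 counts.

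Of the 7 genes, 6 were expressed enough to be tested, 1 of these (PLAUR) was called lower and 0 were called higher. In the same edgeR test, 9.43% of all 21932 tested genes were called lower and 6.46% higher. Neither knockdown library reached the control range, being below it, for 4 of the 6 (PLAUR, PLAU, PLAT and PLGRKT), the case for 31.7% of all tested genes, and both lay above it for 0 of the 6, the case for 29.3%. For PLAU this rested on 2.58 CPM in knockdown replicate 2 against 2.60 CPM in control replicate 2. The median log2 fold change of the 6 was -0.44, beside -0.0082 over all tested genes. The 6 are those left after the filter on low counts, and with few genes this count is a description.

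**Figure D2:**
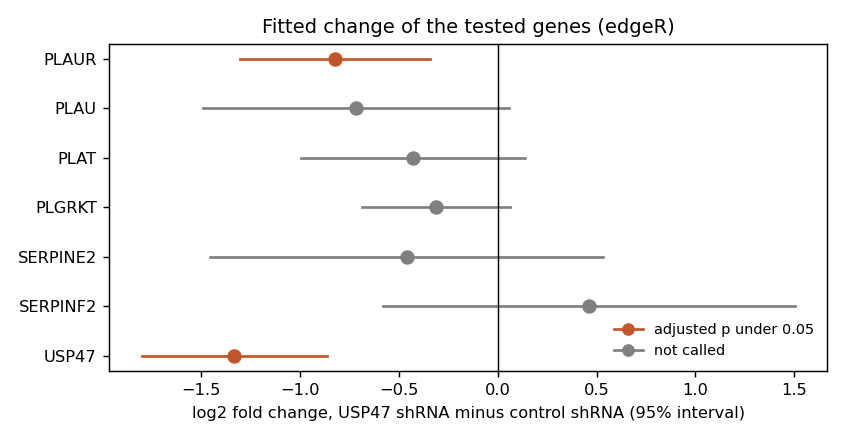
Fitted log2 fold change (USP47 shRNA minus control shRNA, horizontal axis) of the 6 tested genes and of USP47, with bars for the 95% interval. The intervals of PLAUR (-1.31 to -0.34) and of USP47 (-1.80 to -0.87) lay below 0. Those of the other 5 genes, such as PLAU (-1.49 to 0.057), crossed it.

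Between genes, levels can be compared only per length, in TPM, the length-scaled unit of the deposited tables. In the control libraries PLGRKT was highest at 7.66 ± 1.29 TPM (SD, n = 2), followed by PLAUR at 1.58 ± 0.0853 TPM and PLAU at 1.35 ± 0.312 TPM, a pair that did not differ beyond the spread. SERPINF2 at 0.495 ± 0.386 TPM and PLAT at 0.447 ± 0.00256 TPM also lay within their spread of each other, SERPINE2 was lower at 0.112 ± 0.0332 TPM, and SERPINB2 was at 0. The knockdown libraries gave the same order of means, with PLGRKT at 5.68 TPM, PLAUR at 0.838 TPM and PLAU at 0.746 TPM. Within libraries, the ratio of PLAUR to PLAU in TPM was 0.968 and 1.45 with control shRNA and 1.93 and 0.662 with USP47 shRNA, which overlapped. The ratio of SERPINE2 and SERPINB2 to both activators was 0.0670 and 0.0559 with control shRNA and 0.0716 and 0.0689 with USP47 shRNA. These groups did not overlap, although an exact permutation test of 2 against 2 libraries cannot give a p below 0.333. With SERPINB2 at 0, the ratio rested on 8 to 14 counts of SERPINE2. It left out SERPINI1, an inhibitor of tPA, at 0.852 and 0.595 TPM with control shRNA and 2.97 and 1.34 TPM with USP47 shRNA. The ratio is therefore not one of all inhibitors to the activators.

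**Figure D3:**
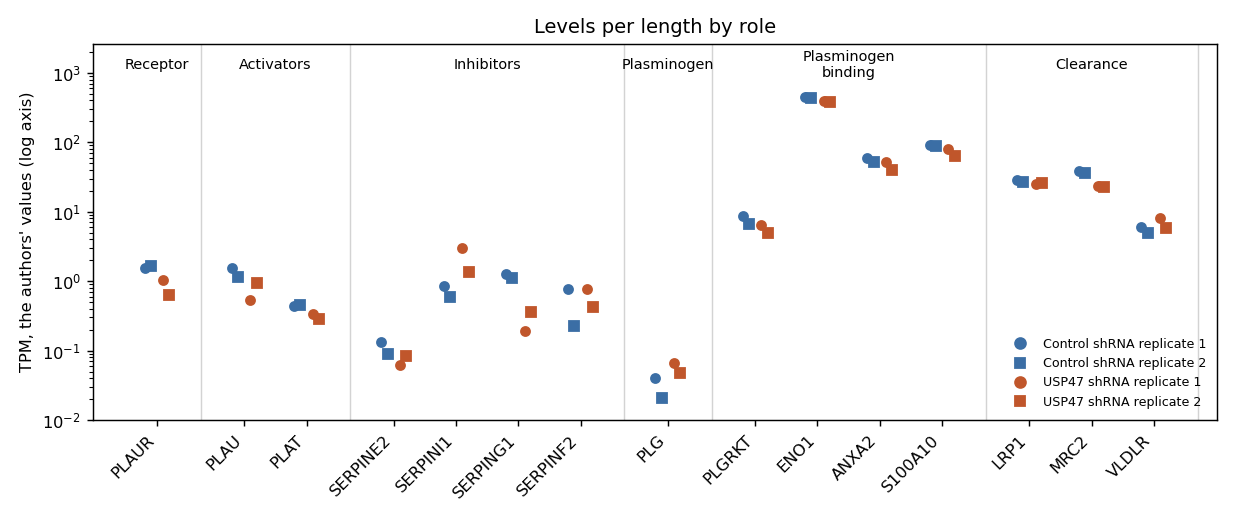
TPM per library, on a logarithmic axis, of 6 of the 7 genes (SERPINB2, at 0, is not drawn) and of other genes of the system, grouped by role, with each point a library. PLGRKT, at 7.66 TPM in the control mean, stood above PLAUR (1.58 TPM), while the surface plasminogen binders ENO1 (441 TPM) and S100A10 (90.4 TPM) stood far above all 7 genes.

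The soluble part of the system outside these genes was described from a list of 17 genes, of which 7 were tested, 1 was called higher and 2 lower (median log2 fold change 0.022). SERPINI1, or neuroserpin, an inhibitor of tPA, rose from 1.27 ± 0.208 to 3.97 ± 1.38 CPM (log2 fold change 1.68, SE 0.31, edgeR adjusted p = 0.0067). SERPING1, the inhibitor of complement C1 and of plasma kallikrein, fell from 3.14 to 0.833 CPM (log2 fold change -2.0, SE 0.35, edgeR adjusted p = 0.00582). KLK1, tissue kallikrein, had 27 and 31 counts against 4 and 3 (log2 fold change -2.95, edgeR adjusted p = 0.00222), and DESeq2 gave it no adjusted p. PLG, the gene for plasminogen, had 3 and 2 counts against 6 and 4 and was not tested. Of all 42 SERPIN symbols, 16 had 0 counts in every library, 11 were tested, 1 was called higher and 1 lower.

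Other cell-surface proteins that bind plasminogen did not pass the test, with 0 of 10 called and a median log2 fold change of -0.11. RUVBL2 came nearest (-0.44, edgeR adjusted p = 0.0571), followed by HMGB1 (-0.28, 0.194), DAG1 (0.29, 0.213) and S100A10 (-0.23, 0.250), the last a subunit of the annexin complex that holds plasminogen and tPA. Among 22 genes of the Ly6/uPAR domain family, to which PLAUR belongs, 5 were tested and 0 were called (median -0.20). LY6E had a log2 fold change of 0.45 (edgeR adjusted p = 0.0602). It was called higher without the filter on low counts and with replicate number as a block. CD59, a complement inhibitor with the same kind of lipid anchor, had one of -0.23 (edgeR adjusted p = 0.266).

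Of 21 partners and clearance receptors of uPAR, 17 were tested, 2 were called higher and 2 lower (median 0.065). LRP1, the endocytic receptor that clears uPAR bound to inhibited urokinase, was at 418 ± 21.3 and 427 ± 102 CPM (log2 fold change 0.03, edgeR adjusted p = 0.925), with a direction that turned under 4 alternatives (library size without TMM, no filter on low counts, without control replicate 1 and without knockdown replicate 2). MRC2, a collagen receptor that associates with uPAR, fell from 190 ± 8.64 to 127 ± 24.4 CPM (log2 fold change -0.58, SE 0.15, edgeR adjusted p = 0.0301), and EGFR fell from 5.92 to 3.28 CPM (log2 fold change -0.85, SE 0.19, edgeR adjusted p = 0.0163). NRP1 rose (log2 fold change 0.75, edgeR adjusted p = 0.00522), as did the clearance receptor VLDLR (log2 fold change 0.48, edgeR adjusted p = 0.0292). The MRC2, EGFR and VLDLR calls did not hold without control replicate 1 or without control replicate 2, the NRP1 call did not hold without control replicate 1, the EGFR call did not hold with DESeq2, and the VLDLR call did not hold when scaled by library size without TMM.

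Among 28 genes that activate urokinase or are cut or released by urokinase or plasmin, 11 were tested, 0 were called higher and 5 lower (median -0.75). FN1, the matrix protein fibronectin, fell from 73.5 to 29.1 CPM (log2 fold change -1.34, SE 0.14, edgeR adjusted p = 0.000588). F2R, a thrombin receptor, fell by 0.91 on the log2 scale (SE 0.15, edgeR adjusted p = 0.00472). HGF, a growth factor whose precursor urokinase can cut, had 22 and 29 counts against 5 and 4 (log2 fold change -2.41, edgeR adjusted p = 0.00506), and F3, tissue factor, had 38 and 49 counts against 25 and 16 (log2 fold change -1.02, edgeR adjusted p = 0.0304). The fifth gene was BDNF (log2 fold change -0.75, edgeR adjusted p = 0.0366), named after its value was seen. DESeq2 gave HGF no adjusted p, and the F3 and BDNF calls did not hold with DESeq2, without control replicate 1 or without control replicate 2. FN1 was, like PLAUR, picked by the study after its RNA-Seq.

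Of 23 regulators of PLAU and PLAUR transcription or mRNA stability, all were tested, 9 were called higher and 1 lower (median 0.19). The AP-1 subunits FOSB (log2 fold change 2.73, SE 0.24, edgeR adjusted p = 0.000471), FOS (2.55, SE 0.26, edgeR adjusted p = 0.000529), JUN (1.97, SE 0.23, edgeR adjusted p = 0.000856) and FOSL2 (1.5, SE 0.20, edgeR adjusted p = 0.0015) rose. Of the other AP-1 subunits in the list, JUNB was called higher, and FOSL1 (-0.12, edgeR adjusted p = 0.825) and JUND (0.16, edgeR adjusted p = 0.537) were not called. EGR1, RELA, SNAI2 and ZFP36 were also called higher. Of these, the SNAI2 and ZFP36 calls did not hold with DESeq2 or when scaled by library size without TMM. The RELA, SNAI2 and ZFP36 calls did not hold without control replicate 1, nor those of RELA and SNAI2 without control replicate 2. ETS1, the gene called lower, had a log2 fold change of -0.61 (SE 0.14, edgeR adjusted p = 0.0168), a call that did not hold without control replicate 1 or without control replicate 2, and SNAI1 had one of 0.16 (edgeR adjusted p = 0.619); these were named after their values were seen. Over the lists apart from the 7 genes, 100 of 186 genes were tested, 12 were called higher and 15 lower, with a median of -0.012.

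Markers of other cell types were set beside the PLAUR result. Of 8 fibroblast genes, all tested, 0 were called higher and 4 lower (median -0.40), among them COL1A1 (log2 fold change -0.75, edgeR adjusted p = 0.0325), COL1A2 (-1.24, adjusted p = 0.0216), FAP (-0.74, adjusted p = 0.0143) and PDGFRA (-0.63, adjusted p = 0.0131), and COL3A1 had a log2 fold change of 0.30 (adjusted p = 0.280). The COL1A2 call was not given by DESeq2, that of COL1A1 did not hold without control replicate 1 or without control replicate 2, that of FAP without control replicate 2, and that of PDGFRA without control replicate 1. The summed level of the list was 3321 and 3316 CPM with control shRNA and 3045 and 3756 CPM with USP47 shRNA, which overlapped. Epithelial and gastric genes summed to 32.0 and 32.3 CPM against 37.9 and 31.8 CPM, with 1 of 8 tested genes (EPCAM) lower. That call did not hold when scaled by library size without TMM, without control replicate 1 or without control replicate 2 or without knockdown replicate 1, and DESeq2 gave it no adjusted p. Immune genes summed to 12.03 and 11.1 CPM against 8.90 and 8.01 CPM, which did not overlap, with 0 of 5 tested genes called, all 5 below 0 and a median log2 fold change of -0.41. The part of these markers in the PLAUR result was not tested.

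The genes whose pattern over the 4 libraries was most like that of PLAUR were found by the Euclidean distance between log2 CPM centred on the mean, among 3567 genes of like average level. They were SLC12A5 (distance 0.0398, log2 fold change -0.86), PPP1R26-AS1 (0.0897, -0.77), IGSF9B (0.119, -0.92), MAP7 (0.123, -0.72) and LBX2 (0.124, -0.81). For PLAU the nearest were TMSB15B-AS1 (0.129) and FGF21 (0.194), for PLAT HTR7P1 (0.0498) and P2RX4 (0.0679), and for PLGRKT INSIG2 (0.0189) and RPL24P4 (0.0351). SERPINE2 was nearest to NBPF2P (0.0830) and METTL21AP1 (0.110), and SERPINF2 to FLRT3 (0.169) and CT55 (0.288). No other tested gene of the set was among those named for PLAUR. Only genes of like average level could be named, and 5 of 3567 were, so no conclusion is drawn from this absence.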

How the data were processed

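The data were 4 RNA-Seq libraries of HGC-27 cells, 2 per group as the labels assign them. For each library the authors deposited a count of reads per gene (not normalized) and the FPKM and TPM values the authors derived from it. Per the methods and the submitters' processing notes, bases under a quality score of 20 were trimmed, reads were mapped to hg19 with STAR 2.7.5c, and duplicates were removed with SAMtools 1.9, which lowers high counts most. The notes also name featureCounts. The annotation and strand setting are not given in the sources used here, the labels and methods name different library kits, and the methods speak of triplicates.

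Counts were tested with edgeR 4.0.16 in R 4.3.3 (TMM, filterByExpr, robust quasi-likelihood fit, both directions, Benjamini-Hochberg over 21932 genes, threshold 0.05). SE is the absolute log2 fold change over the root of its F statistic. On simulated data with 200 changed genes, 70% of genes with a simulated log2 change of 1 and 93% with one of 2 were called, as were 12 unchanged genes. The simulation gave every gene in both groups the same spread between libraries (dispersion 0.0118). It lacks the unequal spread of the real groups, so these shares need not hold for the real data. Within groups, counts differed beyond sampling noise (chi-square per degree of freedom 5.51 and 20.5). Ratios and levels used TPM, and FPKM gave the same ratios. Intervals cover 95%.

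Named genes were USP47, the 7 genes, up to 4 with the smallest p of each list, PLG, LRP1, genes overlapping the 7, and the nearest 5 genes to PLAUR and 2 to the others; genes named outside the rule (ETS1, SNAI1, BDNF, ENO1, COL3A1, KRT18, KRT19 FOSL1, JUND and the others called in the regulator list) were chosen after their values were seen. Genes and lists were chosen with earlier results of these data known. Alternatives were other scalings, filters and tests (DESeq2 1.42.0, limma 3.58.1 voom), a replicate block and leaving out each library. The values of 1 further gene of the system, and the ratio that used it, are not reported here.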

Additional observations from a re-analysis of the deposited data

How the results depend on the processing

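Of 64 values of the tested genes under an alternative, 2 had no adjusted p and 55 kept direction and side of the threshold. Another 4 lost a call, all of them for PLAUR, the only gene of the set that was called. These were library size alone, DESeq2, and leaving out control replicate 1 or control replicate 2. PLAUR was lower at -0.88 with library size alone and -0.81 with DESeq2, neither called, and ranged from -1.01 to -0.67 when a library was left out. PLAU ranged from -1.37 to -0.16 and SERPINF2 from -0.17 (reversed, without control replicate 2) to 1.41. Whether libraries with the same replicate number shared a batch is not given in the sources used here. With 2 pairs, the correlation of deviations (0.213) cannot decide it. The replicate block gave PLAU at -0.72 (called), 2 of the 7 genes lower, and 3517 genes higher and 3881 lower. The 7 genes had 1 called lower, 0 with library size alone or DESeq2, and 0 to 2 without a library. All genes gave 1417 higher and 2068 lower calls, with 868 higher by library size alone, 1171 lower by DESeq2, and 309 to 3718 higher and 885 to 3663 lower without a library. The other lists gave 12 higher and 15 lower, with 21 higher under the block, 8 lower by DESeq2, and 7 to 29 higher and 7 to 24 lower without a library. SERPINE2 and SERPINF2 got no adjusted p from DESeq2 and could not be fitted with at least 10 counts in every library. The causes were not tested. Depth limits SERPINE2, SERPINB2 and SERPINF2 most, with at most 26 counts in a library, and 2 libraries per group limit every test; leaving out a library leaves 1 sample in a group, assumed to vary like the other group.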
